A study of Mus musculus with 12 samples.

Results

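The major histocompatibility region of mouse chromosome 17 was examined probe by probe in the brain of mice lacking the homeobox of En2, a homeobox transcription factor that patterns the midbrain and hindbrain. Members were selected on position: the genes whose probes the cerebellum files place in the stretch of chromosome 17 from the Angptl4 probe, which begins at 33911880 (mm9), to the Olfr111 probe, which ends at 37667052, with Gabbr1 left out. Of the 288 probes in that segment, 19 carried no gene name and 3 belonged to Gabbr1, which left 266 probes of 184 genes among 34891 named probes of 21186 genes on the array. An H2- symbol was carried by 59 of these probes, for 37 genes, and 62 genes had more than 1 probe. The segment itself was chosen by the measured log2 differences between genotypes in this same series, so these differences are given below as a description. Their adjusted p values come from fits across all named probes and are no independent support.

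RNA came from whole cerebellum and whole hippocampus of mice with 3 arrays per genotype and tissue, 12 in all, on Agilent single-colour 60-base arrays. The groups were cerebellum En2WT, cerebellum En2KO, hippocampus En2WT and hippocampus En2KO, called WT and En2-/- here. Per the study's methods, the mice were littermates of both sexes, 3 to 5 months old, from crosses of heterozygotes on a mixed 129Sv, C57BL/6 and outbred background crossed at least 5 times to C57BL/6. The labels do not say whether the cerebellum and hippocampus arrays came from the same mice. The mutation is a germline deletion of the homeobox and, per the study, leaves a residual transcript. The only En2 probe lay between 13.8 and 14.6 in WT and between 14.1 and 14.8 in En2-/- cerebellum on the log2 scale, so it does not check the genotype. Markers of cerebellum, summed, had log2 levels of 18.6 to 19.2 on cerebellum arrays and 14.6 to 15.2 on hippocampus arrays, in the order the tissue labels give. Within the hippocampus, 4 of the 6 cerebellum probes tested were higher in En2-/- without overlap, with a median difference of 1.13 over the 6 and 0 called by limma (4 at an unadjusted p under 0.05). Over all 23774 probes tested there, 27.8% did not overlap and 5032 had an unadjusted p under 0.05. Summed over the 8 cerebellum probes with a value on every array, the level did not overlap in the hippocampus. It was 14.5 on each WT array and 14.9, 14.8 and 14.7 on the En2-/- arrays. Over 9 probes the sums were 14.6 to 14.7 in WT and 14.7 to 15.2 in En2-/-, but a Zic1 probe lacked a value on En2-/- replicate 3. Of 8 hippocampus marker probes tested in the hippocampus, 6 had a lower mean in En2-/- and 2 a higher one. The median difference was −0.54, 4 were lower without overlap, and limma called 0. Their summed log2 level was 16.9 to 17.3 in WT and 16.5 to 16.8 in En2-/- hippocampus. The median spot was 5.72 to 10.4 times its local background, and no spot was saturated. Precision is limited throughout by having 3 arrays a group. In whole tissue, fewer cells of a type and less RNA per cell cannot be told apart.

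The region holds the class I genes, whose products (H2-K and H2-D among the classical ones, and the H2-Q, H2-T and H2-M series) display peptides or other ligands at the cell surface together with beta-2-microglobulin. It also holds the class II genes, whose alpha and beta chains pair to display peptides taken up by antigen-presenting cells, and between these classes lie genes of the complement cascade and of the tumour necrosis factor family. The class I and class II genes are among the most polymorphic genes known, and in the brain class II is known mainly from microglia and macrophages. Genes with no immune role are interspersed along the whole segment.

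A probe reads only the bases it carries, so the probes that the results turn on are shown here as stretches of 30 of their 60 bases, 5′ to 3′, with mm9 positions from the files. Of the 3 probes named H2-Bl, a class I-like gene beside the H2-T series, 2 overlap in the 30 bases written in capitals, at chr17:36217119-36217148 on the minus strand. The other one lies at chr17:36220441-36220687 and shares no such stretch with them.
H2-Bl A_51_P247114, bases 1 to 30: GCTCAAATCTTTGAGCTGAGGGTTGATTAG
H2-Bl A_52_P560113, bases 31 to 60: GCTCAAATCTTTGAGCTGAGGGTTGATTAG
H2-Bl A_52_P350519, bases 1 to 30: atggagcctgaggaacctgatccactacta

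Several class I probes are nearly alike, so that their genes cannot be fully separated. Over the same 30 aligned bases, the probes of H2-K2 (chr17:34112479-34112538, minus strand), H2-D1 (chr17:35403132-35403191, plus strand) and H2-Q2 (chr17:35482113-35482172, plus strand) differ at 5 positions, in capitals.
H2-K2 A_51_P444565, bases 1 to 30: tcCAacatggtAatcAttgctgttctggTt
H2-D1 A_52_P313279, bases 21 to 50: tcTTacatggtGatcGttgctgttctggGt
H2-Q2 A_51_P219789, bases 11 to 40: tcTTacatggtGatcAttgctgttctggTt

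Among the 266 members, 11 pairs of probes were alike over at least 25 bases at 85% identity or more, and 4 of these pairs joined different genes. The accessions of 12 probes name more than 1 gene of the RefSeq table. They include 1 H2-Q10 probe that also names H2-D1, H2-Q1 and H2-Q6, and the C4b probe, which names C4a too. The probes of the class II genes with the largest differences, of Cfb and of Lta had no such partner. They are shown by their starting 30 bases, since H2-Aa was read by a pair of probes that disagreed in part.
H2-Aa A_51_P119760 (chr17:34420627-34420686, minus strand): aaatagcaagtcagtcacagacggcgttta
H2-Aa A_52_P343306 (chr17:34421285-34421344, minus strand): tttggccaattggcaagctttgacccccaa
H2-Eb1 A_51_P393226 (chr17:34452050-34452511, plus strand): ctcctcttcctgcgagcggggctgttcatc
Cfb A_51_P413866 (chr17:34993502-34993858, minus strand): tctcattgttcacaagagaagccgcttcat
Lta A_51_P351015 (chr17:35340275-35340334, minus strand): aggggaaaaatagaaagccgtcagatgaca

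Values are log2 intensities after quantile normalization over the 12 arrays, and every difference is En2-/- minus WT on that scale with its standard error (SE). A probe was tested in a tissue where it was well above background, by the scanner software's flag, on all 3 arrays of at least 1 genotype. It was called where limma's Benjamini-Hochberg adjusted p over all named probes was under 0.05. In the cerebellum 199 members were tested and 10 were called (5.03%), 8 higher and 2 lower in En2-/-. Over all 25053 probes tested there, 0.579% were called, 0.243% higher and 0.335% lower. In the hippocampus 185 members were tested and 14 were called (7.57%), 10 higher and 4 lower, beside 2.13% of 23774 probes, 0.858% higher and 1.27% lower. Arrays of the genotypes did not overlap for 58 members in the cerebellum (29.1%), 29 in each direction, beside 13.6% of all probes tested. In the hippocampus they did not overlap for 76 members (41.1%), 42 higher and 34 lower, beside 27.8%. An unadjusted p under 0.05 was found in the cerebellum for 41 members and for 2005 of all 25053 probes. In the hippocampus it was found for 60 members and for 5032 of all 23774 probes. Through 1 genotype alone, 10 cerebellum members and 15 hippocampus members passed the filter. Where both genotypes had to be well above background, 7 of the 10 cerebellum calls and 8 of the 14 hippocampus calls were kept. C2 A_51_P497985, Lta and 5430410E06Rik were lost in the cerebellum. The hippocampus lost Lta, H2-Bl A_51_P247114 and A_52_P560113, H2-Aa A_51_P119760, 5430410E06Rik and Cfb, all higher in En2-/-, and gained Trim26. The 66 members tested in no tissue, of 51 genes, included the H2-M10 series and 17 of 18 olfactory receptor probes.

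**Figure D1:**
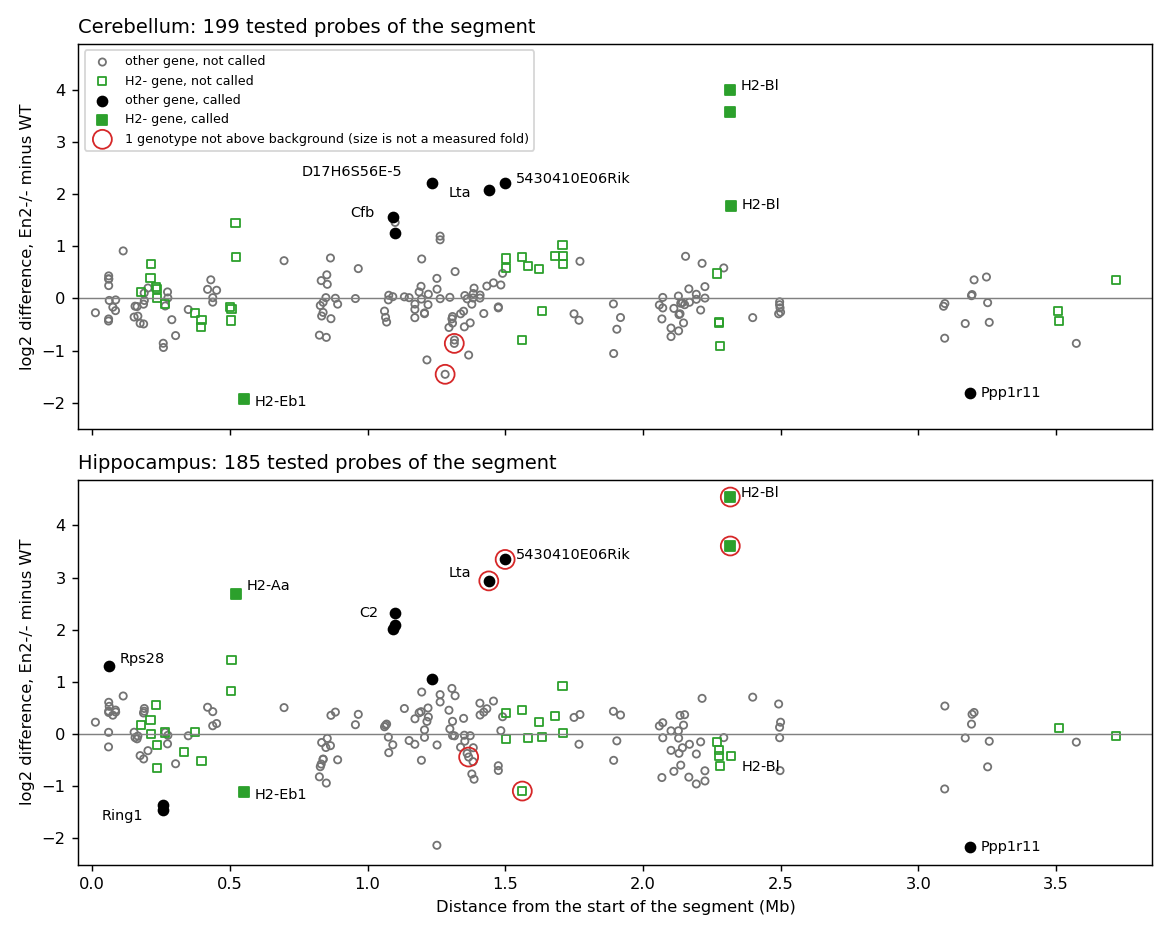
The log2 difference between En2-/- and WT (y axis) of each tested probe against its distance in Mb from the start of the segment (x axis), in the cerebellum (199 probes, top) and the hippocampus (185 probes, bottom). Squares are H2- genes, circles other genes, filled where adjusted p was under 0.05; red rings mark probes above background on no array of 1 genotype, whose plotted size is no measured fold. Differences of both signs lie among probes near 0, and H2-Bl reached 4.01 in the cerebellum.

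H2-Bl had the largest difference of all members tested in the cerebellum. On probe A_51_P247114 the WT cerebellum arrays read 7.43, 7.91 and 8.80, and the En2-/- arrays 11.90, 11.30 and 11.69. Each En2-/- array lay above each WT array, and the difference was 3.58 ± 0.36 (SE, limma adjusted p = 0.00587). The overlapping probe A_52_P560113 read 5.94, 6.56 and 7.41 in WT and 10.78, 10.38 and 10.77 in En2-/- cerebellum, a difference of 4.01 ± 0.36 (adjusted p = 0.00370). These readings share 30 bases of target and are not separate measurements of the gene. In the hippocampus neither was well above background on any WT array, with readings of 1.97 to 3.30 for A_51_P247114 and 2.04 to 2.85 for A_52_P560113. All 3 En2-/- arrays were above background, at 6.53, 7.63 and 7.47 and at 5.36, 6.25 and 6.20. Against the lowest signal well above background on each WT array, En2-/- was at least 6.90-fold higher on A_51_P247114 and at least 2.85-fold higher on A_52_P560113 (adjusted p = 0.00322 for each). Here and wherever a bound is given, the adjusted p is of the difference in readings and does not test the bound. With normexp background correction and an offset of 50, the hippocampus differences of these probes were 1.63 and 0.90, below the 2.15 of C2 A_51_P497985 in that fit.

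The other H2-Bl probe, A_52_P350519, did not follow them in the hippocampus. It read 8.12, 8.03 and 7.57 in WT and 9.999, 9.34 and 9.72 in En2-/- cerebellum, 1.78 ± 0.26 higher (adjusted p = 0.0305). The hippocampus readings were 6.47, 6.00 and 6.42 in WT and 5.81, 5.86 and 5.93 in En2-/-. The En2-/- arrays there lay just below the WT arrays, by 0.43 on the log2 scale, a difference that was not called (SE 0.19, adjusted p = 0.240). The test of the difference between tissues called this probe (hippocampus minus cerebellum −2.20, adjusted p = 0.0329). It was the only member called of 184 tested, beside 0.0731% of 23270 probes, and 10 of the 12 fits that left out an array called no member.

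**Figure D2:**
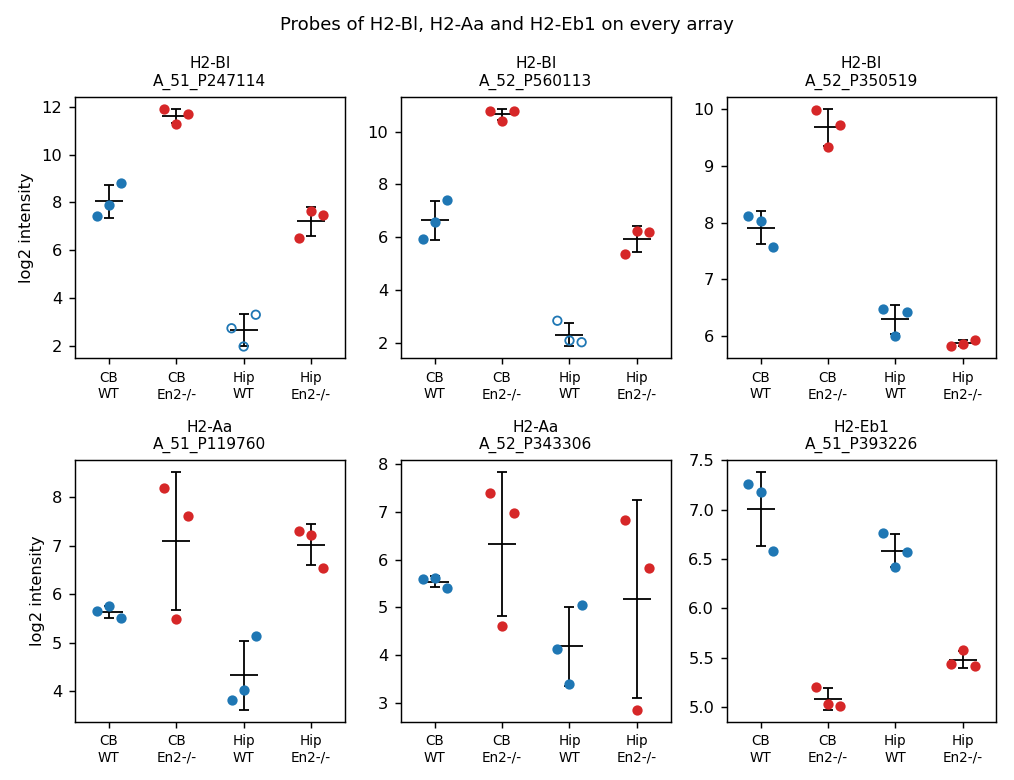
Log2 intensity (y axis) on each array of the probes of H2-Bl, H2-Aa and H2-Eb1, in cerebellum (CB) and hippocampus (Hip) of WT (blue) and En2-/- (red). Points are arrays, bars the mean ± SD of 3 arrays, and open points mark groups with no array well above background; scales differ between panels, and for H2-Aa 1 En2-/- cerebellum array sits at the WT level.

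The class II genes moved in different directions. H2-Eb1, the beta chain of the E molecule, read 7.26, 7.18 and 6.58 in WT and 5.20, 5.02 and 5.01 in En2-/- cerebellum. It fell by 1.93 ± 0.24 on the log2 scale (adjusted p = 0.0169), with no overlap. For hippocampus the arrays gave 6.76, 6.42 and 6.57 in WT and 5.44, 5.58 and 5.42 in En2-/-, and fell by 1.11 ± 0.17 (adjusted p = 0.0250). Both calls were lost with normexp background correction and an offset of 50, where the differences were −0.83 (adjusted p = 0.115) and −0.51 (adjusted p = 0.108). The neighbouring H2-Aa, the alpha chain of the A molecule, went the other way. Its probe A_51_P119760 read 3.81, 4.04 and 5.14 in WT and 7.31, 7.21 and 6.54 in En2-/- hippocampus, 2.69 ± 0.37 higher (adjusted p = 0.0174), with 1 of the 3 WT arrays well above background, and 1.22 higher with normexp and the offset (adjusted p = 0.0234). In the cerebellum it read 5.65, 5.76 and 5.51 in WT and 8.19, 5.49 and 7.61 in En2-/-. En2-/- replicate 2 lay below all WT arrays, and the difference of 1.45 was not called (adjusted p = 0.613). Without that array it was 2.26 ± 0.25 (adjusted p = 0.0276). Of 15 limma settings this was the only 1 that called the probe in the cerebellum. It leaves out the array with the discordant value and is no separate support.

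The other H2-Aa probe, A_52_P343306, showed the same low array in the cerebellum. It read 5.60, 5.62 and 5.40 in WT and 7.40, 4.61 and 6.98 in En2-/- cerebellum, where its difference of 0.79 was not called. In the hippocampus it read 4.13, 3.40 and 5.04 in WT and 6.83, 2.86 and 5.83 in En2-/-, with replicate 2 low on this probe and not on A_51_P119760, and it was not tested because neither genotype was above background throughout. Probe A_52_P683598 of H2-Ab1, the beta chain that pairs with H2-Aa, read 7.66, 6.93 and 7.96 in WT and 9.38, 8.65 and 8.78 in En2-/- hippocampus, 1.42 higher without passing the test (adjusted p = 0.0648). In the cerebellum it read 8.86, 9.26 and 8.39 in WT and 9.78, 7.01 and 9.12 in En2-/-, with replicate 2 again below all WT arrays. Over the class II list, 9 probes were tested in the cerebellum with 0 called higher and 1 lower (median −0.27, beside −0.0029 over all probes). In the hippocampus 7 were tested, with 1 called higher and 1 lower (median 0.04, beside 0.0099). Of all probes tested, 0.579% were called in the cerebellum and 2.13% in the hippocampus. H2-DMa and H2-DMb1, which help load class II molecules, were tested and not called. H2-Ob, H2-DMb2, H2-Eb2 and H2-Ea-ps were not tested in either tissue. Cerebellum En2-/- replicate 2 was the lowest of 6 arrays for 7 of the 9 class II probes and for 74 of 197 members with values on all 6 arrays.

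Outside the segment, no partner of class II and no marker of microglia or macrophages was called higher. The class II partners, among them Cd74, the invariant chain, had 6 probes tested in each tissue and 0 called by limma, with 1 and 0 at an unadjusted p under 0.05. The counts over all probes tested were 2005 of 25053 in the cerebellum and 5032 of 23774 in the hippocampus. Cd74 read 8.14, 8.13 and 9.17 in WT and 9.22, 8.92 and 9.99 in En2-/- cerebellum. It was 0.90 higher there with overlap (limma adjusted p = 0.613) and 0.16 higher in the hippocampus (adjusted p = 0.824). Of the 6 partner probes tested in the cerebellum, 4 had a higher mean in En2-/- and 2 a lower one. Ciita, the class II transactivator, was tested in neither tissue. The summed log2 level of 10 microglia probes was 13.9 to 14.2 in WT and 13.5 to 13.9 in En2-/- cerebellum, lowest on En2-/- replicate 2. In the hippocampus it was 14.8 to 15.0 in WT and 14.5 to 14.6 in En2-/-. There 9 of 9 microglia probes tested had a lower mean in En2-/- and 1 was called lower, beside 1.27% of all probes tested. Aif1, a microglia marker that lies in the segment and not on this list, went the other way. Its 2 probes were 0.36 and 0.59 higher in En2-/- hippocampus, with 0 called, and 0.01 and 0.07 higher in the cerebellum. Of 4 macrophage probes tested in the hippocampus 3 had a higher mean in En2-/- (median 0.30), and limma called 0, with 1 at an unadjusted p under 0.05. Among them Lyve1 A_52_P686785 read 6.27, 6.56 and 6.67 in WT and 7.97, 6.84 and 7.87 in En2-/-, 1.06 higher without overlap (adjusted p = 0.121). The summed macrophage level overlapped, at 8.91 to 9.44 in WT and 9.09 to 9.87 in En2-/- hippocampus. Of 9 T cell probes, 8 were above background on no WT array of the hippocampus and 8 on no En2-/- array, where their summed level overlapped (7.12 to 7.37 in WT, 7.26 to 7.82 in En2-/-). Summed B cell levels overlapped in the cerebellum (6.35 to 6.82 in WT, 6.19 to 7.46 in En2-/-) and were lower in En2-/- hippocampus without overlap (6.63 to 7.78 in WT, 6.34 to 6.51 in En2-/-). The part of these cells in the class II differences was not tested.

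Class I genes other than H2-Bl were not called in either tissue. The classical genes had 5 probes, 3 of H2-K1 and 2 of H2-D1, all tested in each tissue with 0 called by limma and 1 at an unadjusted p under 0.05 in each. Over all probes, 2005 of 25053 in the cerebellum and 5032 of 23774 in the hippocampus were under that limit. H2-D1 A_51_P496996 read 13.30, 13.27 and 12.29 in WT and 13.64, 13.46 and 14.05 in En2-/- cerebellum, 0.77 higher with no overlap (adjusted p = 0.613). Readings in hippocampus were 11.32, 10.96 and 11.31 in WT and 12.34, 11.14 and 11.33 in En2-/-, and the genotypes overlapped. Of the class I-like genes, 21 probes were tested in the cerebellum, with 10 above WT without overlap, 3 below, and a median of 0.56. Of all 25053 probes tested there, 1519 were higher and 1895 lower without overlap. In the hippocampus 19 class I-like probes were tested, with 3 above, 4 below, and a median of −0.00. Of all 23774 probes tested there, 3308 were higher and 3300 lower without overlap. The 3 class I-like probes called in the cerebellum and the 2 in the hippocampus were those of H2-Bl.

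The H2-Q probes, which read class I-like genes between H2-D1 and the H2-T series, accounted for several of the cerebellum readings without overlap. H2-Q10 A_52_P428354 read 10.08, 10.05 and 9.31 in WT and 10.67, 10.61 and 11.23 in En2-/- cerebellum, 1.02 higher (adjusted p = 0.328). Hippocampus arrays read 8.23, 7.59 and 8.30 in WT and 9.40, 8.70 and 8.76 in En2-/-, 0.91 higher (adjusted p = 0.125). H2-Q7, H2-Q2 (both probes), a second probe of H2-Q10 and H2-K2 A_51_P444565 were 0.62 to 0.81 higher in the cerebellum without overlap, and WT replicate 3 gave the lowest of the 6 cerebellum readings for 12 of 20 class I-like probes. H2-Q1 went the other way, with 8.56, 8.62 and 9.01 in WT and 7.91, 8.04 and 7.84 in En2-/- cerebellum. In the hippocampus it read 4.73, 5.12 and 6.00 in WT and 4.23, 3.88 and 4.45 in En2-/-, where all WT arrays and no En2-/- array were well above background, at least 1.46-fold lower in En2-/-. H2-T22, a ligand of gamma-delta T cells, was lower on probe A_52_P197826 in both tissues (−0.91, adjusted p = 0.160, and −0.61, adjusted p = 0.144) with no overlap.

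Beta-2-microglobulin and the other class I partners outside the segment had 10 probes tested in each tissue, and limma called 0, with 0 and 2 at an unadjusted p under 0.05. Within the segment the peptide transporter Tap1 and Tap2, tapasin (Tapbp) and the immunoproteasome subunits Psmb8 and Psmb9 had 7 probes tested in the cerebellum and 6 in the hippocampus, with 0 called by limma and 0 and 2 at an unadjusted p under 0.05. Beside both lists, 2005 of all 25053 probes in the cerebellum and 5032 of 23774 in the hippocampus were under that limit. Psmb9 read 8.49, 8.39 and 8.43 in WT and 9.21, 8.54 and 9.10 in En2-/- hippocampus, 0.51 higher without overlap (adjusted p = 0.221).

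Of the complement genes, C2 and Cfb were called higher in En2-/- in both tissues, C2 in the cerebellum on 1 of 2 probes, and C4b was not called. C2, the serine protease of the classical and lectin pathways, read 8.33, 8.73 and 9.52 in WT and 11.31, 10.81 and 11.41 in En2-/- hippocampus on probe A_51_P497985, 2.32 ± 0.32 higher (adjusted p = 0.0174). Its other probe, A_52_P428699, read 6.39, 6.68 and 6.91 in WT and 8.69, 8.60 and 8.96 in En2-/-, 2.09 ± 0.20 higher (adjusted p = 0.00501). In the cerebellum A_51_P497985 read 10.49, 10.59 and 10.65 in WT and 11.97, 11.59 and 11.93 in En2-/-, 1.25 ± 0.20 higher (adjusted p = 0.0475). A_52_P428699 read 8.14, 8.33 and 7.62 in WT and 9.45, 9.41 and 9.60 in En2-/- cerebellum, 1.46 higher and just outside the threshold (adjusted p = 0.0505). No array of a genotype overlapped the other on either probe in either tissue. With the slide of the arrays as a block, C2 was not called in the cerebellum on either probe (adjusted p = 0.142 and 0.127), and nor was Cfb (adjusted p = 0.0648).

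Cfb, the protease of the alternative pathway and the gene next to C2, read 5.18, 5.10 and 5.41 in WT and 6.97, 6.59 and 6.80 in En2-/- cerebellum, 1.56 ± 0.21 higher (adjusted p = 0.0223). For hippocampus the arrays gave 4.50, 4.65 and 4.97 in WT and 6.55, 6.58 and 7.05 in En2-/-, 2.02 ± 0.22 higher (adjusted p = 0.00603). The hippocampus call was lost where both genotypes had to be well above background. With normexp and an offset of 50 the Cfb differences were 0.72 in the cerebellum (adjusted p = 0.136) and 0.86 in the hippocampus (adjusted p = 0.0406). The C4b probe was 0.57 higher in the cerebellum without overlap (adjusted p = 0.650) and overlapped in the hippocampus, and the C4a probe was above background nowhere. Over the list, 4 probes were tested in each tissue, with 2 called higher in the cerebellum (median 1.36) and 3 in the hippocampus (median 2.05). Of all probes tested, 0.243% and 0.858% were called higher. Both C2 probes had higher levels in WT cerebellum than in WT hippocampus, and cerebellum markers were higher in En2-/- hippocampus beside them, Zic1 A_51_P194230 by 1.20 without overlap (adjusted p = 0.0563). The part of these markers in the hippocampus differences was not tested. Outside the segment, 10 probes of complement genes, among them C3 and those of C1q, were tested in each tissue and limma called 0, with 0 and 2 at an unadjusted p under 0.05. Over all probes tested, 2005 of 25053 in the cerebellum and 5032 of 23774 in the hippocampus were under that limit.

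Of the tumour necrosis factor family, Lta (lymphotoxin alpha) read 3.13, 3.34 and 4.13 in WT and 5.55, 5.71 and 5.58 in En2-/- cerebellum, 2.08 ± 0.28 higher (adjusted p = 0.0243), with 1 WT array well above background. It was above background on no WT array of the hippocampus (3.62, 4.28 and 3.88) and on all En2-/- arrays (6.27, 7.15 and 7.17), at least 5.43-fold higher (adjusted p = 0.00587). With normexp and the offset of 50, Lta was 0.57 higher in the cerebellum (adjusted p = 0.282) and 1.18 in the hippocampus (adjusted p = 0.0255). Ltb, which joins it in a membrane-bound trimer, read 7.83, 8.19 and 8.03 in WT and 8.501, 8.40 and 8.60 in En2-/- hippocampus, 0.48 higher (adjusted p = 0.177). The Tnf probe was above background on no array. Receptors of the family (Tnfrsf1a, Tnfrsf1b and Ltbr) had 4 probes tested in each tissue and limma called 0, with 2 and 0 at an unadjusted p under 0.05. Among all probes tested these counts were 2005 of 25053 and 5032 of 23774.

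**Figure D3:**
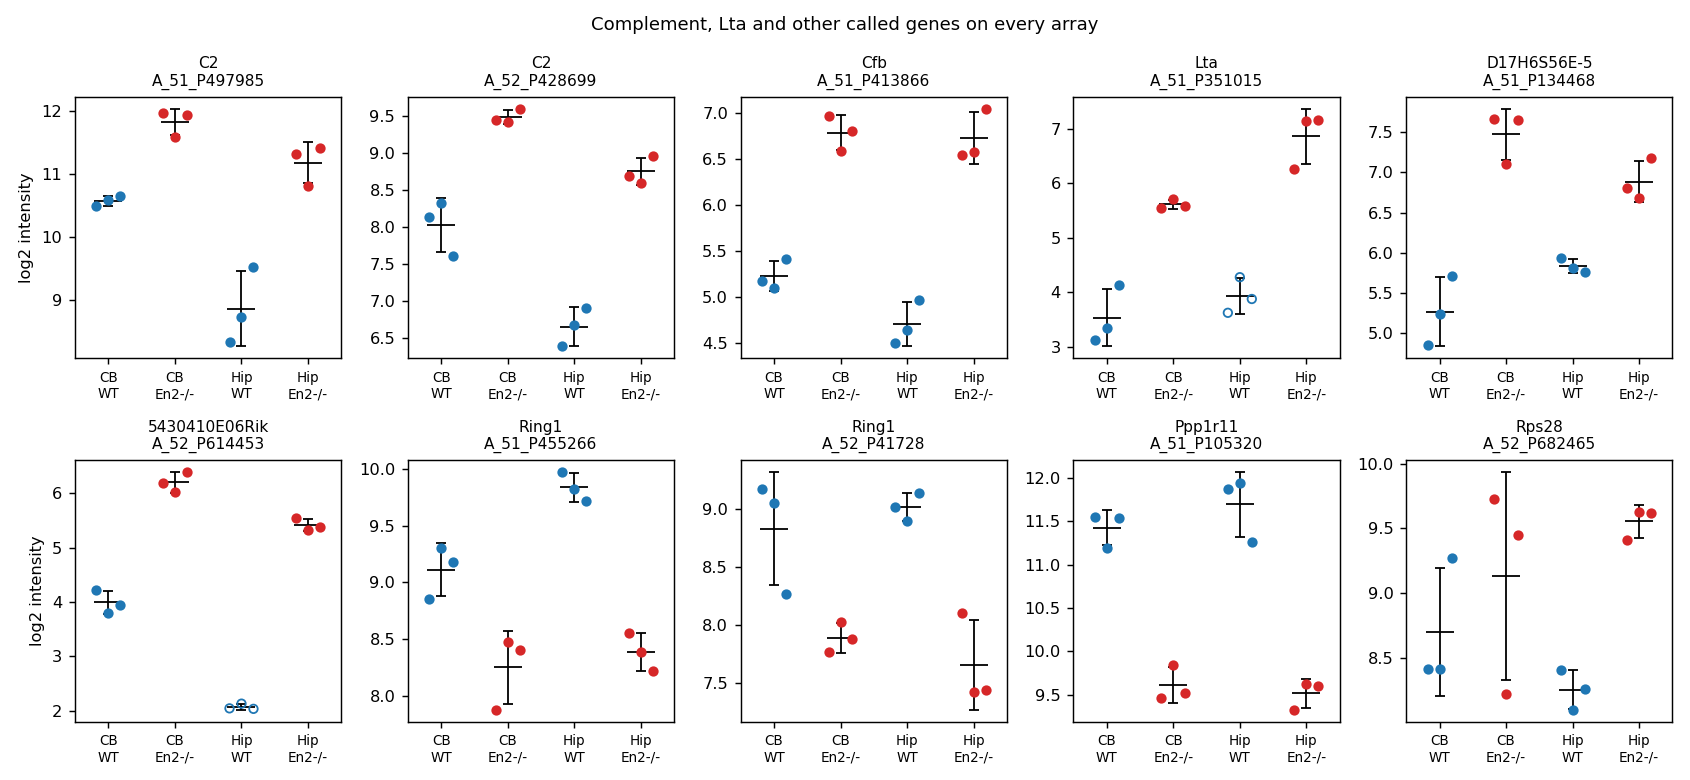
Log2 intensity (y axis) on each array of the probes of C2, Cfb, Lta and 5 other called genes, in cerebellum (CB) and hippocampus (Hip) of WT (blue) and En2-/- (red). Points are arrays, bars the mean ± SD of 3 arrays, and open points mark groups with no array well above background; scales differ between panels, Ring1 and Ppp1r11 are lower in En2-/-, and Rps28 separates the genotypes only in the hippocampus.

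The genes outside these immune groups had 151 probes tested in the cerebellum, 2 called higher and 1 lower. In the hippocampus they had 142, with 3 called higher and 3 lower. Over all probes tested, 0.243% were called higher and 0.335% lower in the cerebellum, and 0.858% higher and 1.27% lower in the hippocampus. Ppp1r11, an inhibitory regulator of protein phosphatase 1, read 11.55, 11.19 and 11.53 in WT and 9.47, 9.85 and 9.52 in En2-/- cerebellum. It fell by 1.81 ± 0.21 on the log2 scale (adjusted p = 0.0145). On hippocampus arrays it read 11.87, 11.94 and 11.26 in WT and 9.33, 9.62 and 9.61 in En2-/-, and fell by 2.17 ± 0.23 (adjusted p = 0.00587). Its only probe starts at position 37088460, further along the segment than H2-Bl.

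Ring1, a subunit of Polycomb repressive complex 1 at the other end of the segment, was lower on both of its probes. Probe A_51_P455266 read 9.97, 9.82 and 9.72 in WT and 8.56, 8.39 and 8.22 in En2-/- hippocampus, a fall of 1.45 on the log2 scale (adjusted p = 0.0102). Probe A_52_P41728 read 9.02, 8.90 and 9.14 in WT and 8.11, 7.43 and 7.45 in En2-/-, 1.36 lower (adjusted p = 0.0312). In the cerebellum the values were −0.86 and −0.94, again without overlap but not called (adjusted p = 0.329 and 0.348).

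D17H6S56E-5 and 5430410E06Rik, transcripts of the stretch between C2 and H2-D1, were higher in both tissues. D17H6S56E-5 read 4.85, 5.24 and 5.72 in WT and 7.67, 7.11 and 7.65 in En2-/- cerebellum, 2.21 ± 0.29 higher (adjusted p = 0.0187). In the hippocampus it read 5.93, 5.81 and 5.76 in WT and 6.80, 6.68 and 7.17 in En2-/-, 1.05 ± 0.19 higher (adjusted p = 0.0376). 5430410E06Rik read 4.22, 3.81 and 3.95 in WT and 6.18, 6.02 and 6.39 in En2-/- cerebellum, 2.21 ± 0.21 higher (adjusted p = 0.00509). No WT array of the hippocampus was above background (2.04, 2.13 and 2.03) and all En2-/- arrays were (5.55, 5.33 and 5.37), at least 1.99-fold higher (adjusted p = 0.000159). With normexp and the offset, D17H6S56E-5 was 1.29 higher in the cerebellum (adjusted p = 0.0372) and 0.58 in the hippocampus (adjusted p = 0.108). 5430410E06Rik was then 0.71 and 0.64 higher (adjusted p = 0.142 and 0.0632).

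Rps28, a ribosomal protein of the small subunit near the start of the segment, was read by 4 probes, and in the hippocampus 1 of them was called. Probe A_52_P682465 read 8.40, 8.10 and 8.26 in WT and 9.41, 9.63 and 9.62 in En2-/-, 1.30 ± 0.17 higher (adjusted p = 0.0159), while the lowest difference among the 4 was 0.41. Among genes with more than 1 tested probe in the hippocampus, 46 in all, 4 had a called probe and 2 of these, C2 and Ring1, had all of theirs called. In the cerebellum 2 of 51 such genes had a called probe, H2-Bl with all 3 and C2 with 1.

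Further members of other function differed without overlap in a tissue and were not called. In the cerebellum Msh5, a meiotic recombination protein, was above background on all WT and no En2-/- arrays, at least 1.78-fold lower in En2-/- (adjusted p = 0.0842). Low differences were also those of the testis-enriched chaperone gene Hspa1l (−1.18, adjusted p = 0.334) and of Apom, an apolipoprotein (−1.09, adjusted p = 0.219). Vars2, the mitochondrial valyl-tRNA synthetase, followed at −1.06 (adjusted p = 0.264), and its hippocampus value was −0.51. In the hippocampus Trim26, a tripartite motif protein, was at −1.05 (adjusted p = 0.0520), Agpat1, an acyltransferase of phospholipid synthesis, at −0.94 (adjusted p = 0.200) and Gnl1 at −0.90 (adjusted p = 0.0627). The cerebellum value of Gnl1 was near 0 and had no settled sign. A Vars probe (A_52_P370560, named after its values were seen) had a mean difference of −2.13 in the hippocampus that came from 1 En2-/- array at 3.64, not well above background, while the other two read 9.20 and 8.67, within or just below the WT range.

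Along the segment, called probes stood among probes that were not called, some of which also did not overlap between genotypes. The bin of 0.5 Mb from 34.9 to 35.4 Mb, which holds C2, Cfb, D17H6S56E-5, Lta and 5430410E06Rik, had 5 of 60 tested probes called higher in the cerebellum and 6 of 56 in the hippocampus, and 0 called lower by limma in either. In that bin 16 of the 60 and 27 of the 56 did not overlap between genotypes, in both directions. The shares over all probes tested were 13.6% and 27.8%, and those called higher were 0.243% and 0.858%. The bin from 35.9 to 36.4 Mb had 3 of 38 and 2 of 37 called higher, all of H2-Bl. No probe was called in the bin from 35.4 to 35.9 Mb, which holds the H2-Q series, where 18 and 17 were tested. Its median absolute difference in the cerebellum was 0.64, beside 0.21 over all probes tested. Of the 18, 7 were higher and 4 lower without overlap, beside 13.6% of all probes in either direction. In the hippocampus the median absolute difference of this bin was 0.34, beside 0.28 over all probes tested. Of the 17 tested there, 2 were higher and 1 lower without overlap, beside 27.8% of all probes. From 36.4 to 36.9 Mb 0 of 7 members were tested in either tissue.

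At the limits no probe was called. The nearest probes outside the start were 3 of Rab11b, whose cerebellum differences were −0.39, −0.11 and −0.12 and whose hippocampus differences were −1.05, −0.39 and −0.64. In the hippocampus all 3 were lower without overlap (lowest adjusted p = 0.0791). The nearest inside were Angptl4 (−0.27 and 0.23) and a pair of Kank3 probes (−0.43 and −0.39 in the cerebellum, −0.25 and 0.03 in the hippocampus). Inside the end, H2-M2 was at 0.35 and −0.03, and the olfactory receptor probes on either side of that limit (Olfr109 and Olfr111 within, Olfr112 to Olfr114 beyond) were not tested. In the 2 Mb on each side, 0 of 67 probes tested in the cerebellum were called higher by limma and 1 lower. In the hippocampus 1 of 58 was called higher and 1 lower. Over all probes tested, 0.579% were called in the cerebellum and 2.13% in the hippocampus. Of the 67 and the 58 neighbouring probes, 63 and 53 lie before the start of the segment. Absolute differences over 1 were found for 16.4% of the 67 in the cerebellum, beside 9.55% of the members and 3.05% of all probes. The median absolute difference in the cerebellum was 0.38 outside the limits and 0.30 within them. The hippocampus had the reverse order. Absolute differences over 1 were found there for 6.90% of the 58, beside 9.73% of the members and 4.69% of all probes. Its median absolute difference was 0.33 outside the limits and 0.37 within them.

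The 12 arrays lay on 3 slides, each with 1 array of each of the 4 groups, and the replicate number names the slide. Since the genotypes of every called probe did not overlap, the sign within a slide was fixed. The sizes varied, as for H2-Bl A_51_P247114 (4.48, 3.38 and 2.89 on slides 1, 2 and 3 in the cerebellum), H2-Aa A_51_P119760 (3.49, 3.17 and 1.40 in the hippocampus) and Cfb (1.80, 1.49 and 1.39 in the cerebellum). With the slide as a block, 6 members were called in the cerebellum and 9 in the hippocampus. Those lost were C2 A_51_P497985, H2-Bl A_52_P350519, Ppp1r11 and Cfb in the cerebellum, and H2-Aa, H2-Eb1, D17H6S56E-5, Rps28 and Ring1 A_52_P41728 in the hippocampus. With the background correction changed to normexp and an offset of 50 added, Lta, 5430410E06Rik, Cfb and H2-Eb1 were lost in the cerebellum and D17H6S56E-5, 5430410E06Rik and H2-Eb1 in the hippocampus. C2 A_52_P428699 was gained in the cerebellum and Trim26 in the hippocampus. The authors' own values gave the same 7 and 12 calls. Without WT replicate 1 or 2 or En2-/- replicate 1 or 3 in the cerebellum, 3 members were called each time, H2-Bl A_51_P247114 and A_52_P560113 and 5430410E06Rik. The rank product at the study's limits called 24 of 199 members in the cerebellum (12.1%, 16 higher and 8 lower) beside 4.43% of all probes. In the hippocampus it called 17 of 185 (9.19%, 11 higher and 6 lower) beside 4.25%.

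The levels of the segment in the WT tissues are a comparison that did not enter the choice of members. Of 196 members tested, 62 differed between WT cerebellum and WT hippocampus (31.6%), 50 higher and 12 lower in the cerebellum. Over 25085 probes the share was 24.2%, 12.1% higher and 12.1% lower. Leaving out an array gave between 32 and 67 called members. The H2- symbols had 37 probes tested, 25 higher and 2 lower in the cerebellum, and the other symbols 159, 25 higher and 10 lower. Of 20 class I-like probes tested 18 were higher in the cerebellum, with a median of 1.25, and of the 5 classical probes 3 were.

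H2-Bl was far higher in WT cerebellum than in WT hippocampus, at least 12.3-fold on A_51_P247114 (adjusted p = 5.2e-05) and at least 4.65-fold on A_52_P560113 (adjusted p = 0.000114). Its other probe was 1.61 ± 0.24 higher (adjusted p = 0.00180). H2-Q1 was 3.45 higher on the log2 scale (SE 0.33, adjusted p = 0.000160), and H2-D1 was 1.76 and 1.52 higher on its probes. D17H6S56E-3, a gene between C2 and Lta, was above background on no WT hippocampus array and at least 6.46-fold higher in WT cerebellum (adjusted p = 2.59e-06). Both C2 probes were higher in the cerebellum, by 1.72 and 1.37 (adjusted p = 0.00421 and 0.00577), while Cfb, 0.53 higher, was not called (adjusted p = 0.124).

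The class II list was split between the tissues, with 4 of 10 probes higher and 2 lower in WT cerebellum. H2-Aa was 1.31 and 1.35 higher (adjusted p = 0.0239 and 0.0325), and 2 of 3 H2-Ab1 probes were 1.31 and 1.32 higher. H2-DMa was 1.17 lower in the cerebellum on the log2 scale (adjusted p = 0.0244), and so was H2-Oa, the alpha chain of an inhibitor of class II loading, with −1.06 (adjusted p = 0.0214). The probes of Aif1, a gene of the segment known as a microglia marker, were −1.31 and −1.25 in the cerebellum relative to the hippocampus. The summed microglia level was also lower there, at 13.9 to 14.2 against 14.8 to 15.0 in WT arrays. H2-Eb1 differed by 0.42 (adjusted p = 0.260).

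**Figure D4:**
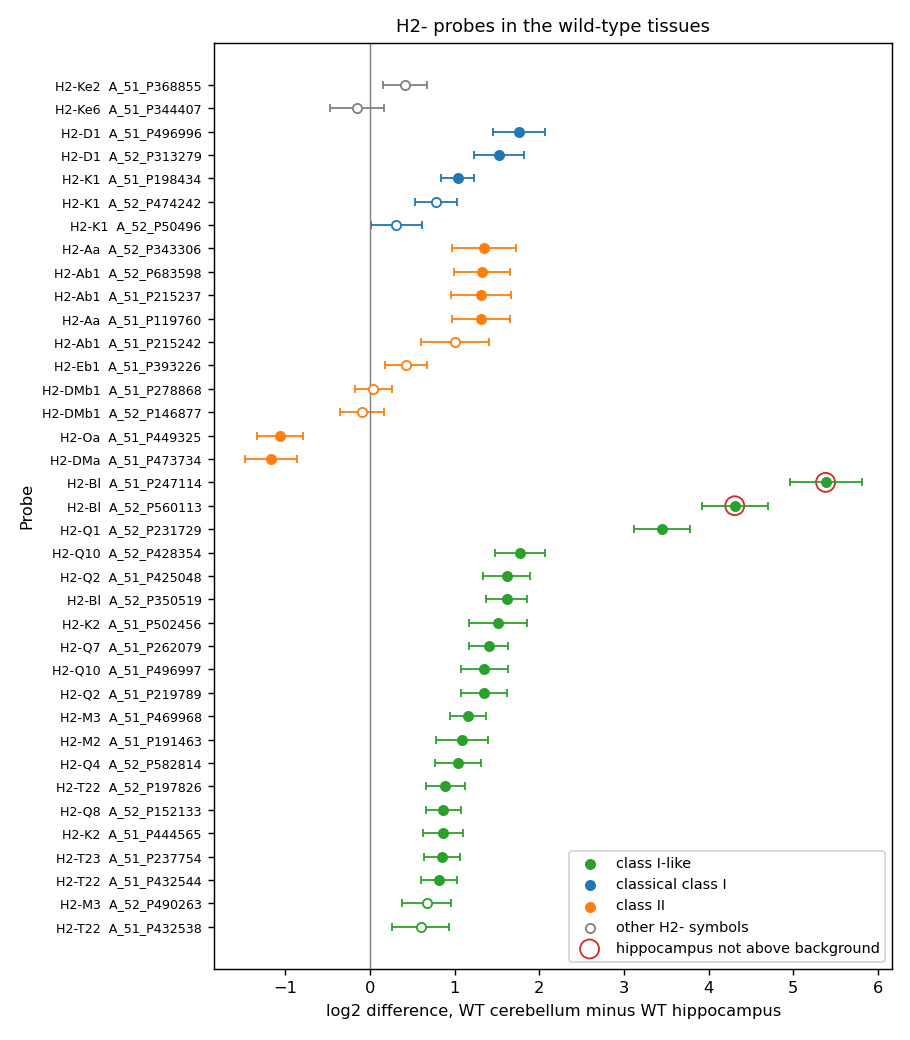
The log2 difference between WT cerebellum and WT hippocampus (x axis) of each tested H2- probe (y axis, gene and probe), with bars for the SE from limma. Filled points have an adjusted p under 0.05; of the class I-like probes 18 of 20 are filled and to the right of 0, red rings mark the 2 H2-Bl probes above background on no WT hippocampus array, whose plotted size is no measured fold, and H2-Oa and H2-DMa are the filled points below 0.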

How the data were processed

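The authors deposited, for each of 12 arrays, the intensity of every spot on a linear scale as given by Agilent Feature Extraction 10.7.3.1, which had subtracted background, with mean signal and local background. They also deposited a table of log2 values which, per the study's methods, was filtered and quantile normalized with Agi4x44PreProcess. Probe names and mm9 positions are those in the newer annotation of the cerebellum files.

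Control spots and spots flagged as outliers were left out. Log2 processed intensities were quantile normalized over 12 arrays, spots of a probe were averaged, and each probe was kept apart. Differences were fitted per tissue in R 4.3.3 with limma 3.58.1 on probes with values on at least 2 arrays per group, with Benjamini-Hochberg adjustment. The study's own test, the rank product, was written out here as an alternative with 100 permutations and P limits of 0.01 (cerebellum) and 0.005 (hippocampus), since its null draws on genes. A probe not above background on any array of a group has only a bound there, taken as the higher of its own signal and the lowest signal well above background on each array. An adjusted p printed beside a bound is limma's for the readings themselves. The procedure was tested on simulated data.

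With 3 arrays per group a single value has a smallest exact two-sided p of 0.1. Nothing in the labels says how the arrays of a group relate beyond separate samples, so p values measure the spread between those samples. Deviations of WT and En2-/- arrays of the same replicate number correlated at −0.144, 0.0821 and −0.0204 (cerebellum) and at −0.185, 0.0699 and −0.163 (hippocampus); the scanner files show that the number is the slide. The text names the probes of H2-Aa, H2-Eb1, Cfb, C2, Lta and H2-Bl, every called probe, the 8 highest and 8 lowest differences per tissue among tested probes without overlap, and 3 probes on each side of each limit. Other probes named for a list or as a pair were chosen after their values were seen. The members and lists were chosen with earlier results of these data known. Of 184 member genes, 171 had their symbol in the RefSeq table, 9 an older symbol and 4 none; names were kept as in the files. Other background corrections, normalizations, filters, a slide block and fits lacking 1 array were tried as alternatives.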

Additional observations from a re-analysis of the deposited data

Results flagged for a closer look

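The H2-Bl probe A_52_P350519 differed in its genotype difference between tissues. It was 1.78 higher in En2-/- cerebellum and 0.43 lower in En2-/- hippocampus on the log2 scale, an interaction of −2.20 (limma adjusted p = 0.0329). The other H2-Bl probes were higher in En2-/- in both tissues.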

How the results depend on the processing

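The number of segment probes called depended on several settings. In the cerebellum it was 10, and it was 2 with no filter on dim probes, 6 with the slide as a replicate block and 24 by the rank product. In the hippocampus it was 14, and 9 both with probes above background in each genotype alone and with the replicate block. The interaction gave 1 called member, and 2 with the authors' values. Leaving out 1 array gave 3 to 8 calls in the cerebellum, 7 to 12 in the hippocampus, 0 to 1 for the interaction and 32 to 67 between the WT tissues. Members without overlap then numbered 62 to 88 in the cerebellum, and in both tissues they were more than with all arrays. A group with fewer arrays is more often free of overlap by chance, so this rise is no sign of stronger separation. The sign of Gnl1 A_52_P491766 in the cerebellum turned, from 0.0070 to −0.059 with the 75th percentile, −0.48 without WT replicate 3 and −0.20 without En2-/- replicate 2, and it was at most 0.27 without any other array. Over named probes and settings, 583 values kept direction and side of the threshold, 108 lost a call, 13 gained one and 3 turned. The causes were not tested. Lta, 5430410E06Rik and 2 of the H2-Bl probes were above background on no WT hippocampus array, so their differences there have only a bound.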
